A study of Mus with 6 samples.

Results

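Chaperones and heat shock proteins were followed in leukaemic stem and progenitor cells of mice with chronic myeloid leukaemia (CML). A probe was taken when its symbol in the platform annotation began with Hspa, Hspb, Hspd, Hspe, Hsph, Hsp90, Dnaja, Dnajb, Dnajc, Pdia or Pfdn, or with Cct and a digit from 2 to 8, or was Tcp1, Calr or Canx. This gave 167 of 45281 probes on the array, for 89 of 19057 genes named there. There were 3 wild-type (WT) and 3 Klf4-deficient samples, each on its own one-colour Illumina mouse bead array. Both groups were C57BL/6 mice with a leukaemia induced by BCR-ABL p210, and RNA came from bone marrow 14 days after bone marrow transplantation. The study sorted GFP+ cells that lack lineage markers and carry Sca-1 and c-Kit, the LSK gate, which holds stem and early progenitor cells. The groups thus share the oncogene, the transplantation and the sort, and differ by label only in Klf4, which encodes a zinc finger transcription factor. How Klf4 was removed, and whether replicates were separate mice, is not given in the labels, so the p-values rest on a spread among samples that may be technical.

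Chaperones bind unfolded or partly folded proteins and help them reach or keep their native shape. HSP70 proteins bind short hydrophobic stretches in an ATP-driven cycle that J proteins of the DNAJ families start, while HSP90 acts later on kinases and receptors, BCR-ABL among its known clients. The ring-shaped CCT complex folds actin and tubulin with the help of prefoldin, and HSP60 with HSP10 does related work in mitochondria. In the endoplasmic reticulum (ER), BiP, GRP94, the lectins calnexin and calreticulin and the protein disulfide isomerases serve secreted and membrane proteins.

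Of the 89 genes, 61 exceeded an intensity of 32 on at least 1 array and were tested, and 28 stayed at or below 32 on all 6 arrays. Intensities are on a linear scale after background subtraction, so values below 0 occur, and values below 32 were set to 32 before the log2 was taken. A gene with several probes was represented by its brightest, and the counts of genes below are over these representing probes. Of the 61, 14 were above 32 on all 6 arrays (23.0%, against 7.88% of all 13773 features tested) and 17 on 1 array only (27.9%, against 44.6%). The 14 were the HSP70 genes Hspa8, Hspa5 and Hspa9, the HSP90 genes Hsp90aa1 and Hsp90b1, Hspd1 and Hspe1, the CCT genes Cct4, Cct5, Cct6a and Cct8, the prefoldin gene Pfdn2, and the J protein genes Dnajb1 and Dnajc2. Those never above 32 included 6 of 7 small heat shock protein genes, the stress-inducible HSP70 genes Hspa1a and Hspa1b, and Dnaja1. A value under 32 is a limit of the measurement and does not show that a gene was silent.

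**Figure D1:**
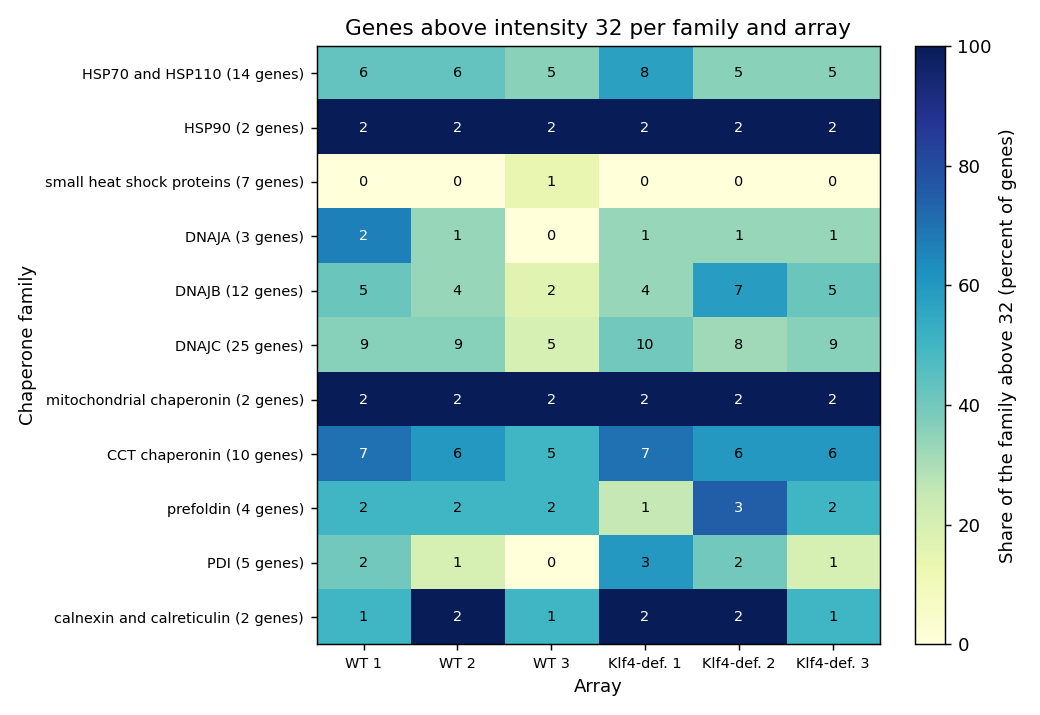
Number of genes whose representing probe is above an intensity of 32 in each chaperone family (rows, with the number of genes measured) on each of the 6 arrays (columns), coloured by the share of the family's genes. HSP90 and the mitochondrial chaperonin are above 32 on every array, the small heat shock proteins on WT replicate 3 only, and no PDI or DNAJA gene is above 32 on WT replicate 3 on its representing probe.

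WT replicate 3 stood apart from the other 5 arrays. Across all features tested its log2 values correlated with theirs at Pearson r = 0.292 to 0.306, against 0.679 to 0.741 among the others. Across the 61 chaperone genes the same figures were 0.520 to 0.612 and 0.663 to 0.868. These are descriptions across genes, which are not independent, on arrays that share a common scale. On WT replicate 3, 25 of the 61 genes (41.0%) were above 32, against 34 to 41 on each other array (55.7% to 67.2%). Over all features tested that array was not lower, with 42.6% above 32 against 40.4% to 41.5%. The filter raised that share, since 2693 features were above 32 on WT replicate 3 only, against 587 to 810 on each other array. Over all 45281 probes the share was 15.6% on WT replicate 3 and 15.9% on each other array. Of 23 chaperone genes above 32 on the other 5 arrays, 9 were at the floor on WT replicate 3, namely Calr, Pdia3, Dnajc3, Dnajc6, Dnajc19, Dnaja2, Dnajb6, Dnajb13 and Cct3. This holds for the representing probe, since 4 of them exceeded 32 there on another probe (Dnajc6 at 379, Dnaja2 at 265.7, Dnajc19 at 126.2 and Cct3 at 52.5). Over all features that share was 52.8%. The array was the highest of the 6 for 13 chaperone genes (21.3%), Cct4, Cct5, Cct8, Hsp90b1, Canx and Hspa4 among them, beside 13 on WT replicate 1, 14 on Klf4-deficient replicate 1 and 6 to 8 on each other array. Over all features it was the highest for 31.8%. The SD of log2 values within a group had a median over the 61 genes of 1.06 in WT, against 0.41 in Klf4-deficient arrays. Without WT replicate 3 it was 0.373, but this rests on fewer arrays and is not a like comparison. Of the 14 genes above 32 on all arrays, 12 had the larger SD in WT, with Hspa5 and Dnajc2 as the exceptions. For Hsp90aa1 and Hspa9 the highest and lowest WT arrays were replicates 1 and 2. Values without WT replicate 3 are therefore given for chaperone genes where they differ.

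Between Klf4-deficient and WT cells, 0 of the 61 chaperone genes were called by limma (adjusted p under 0.05). The percentage called over all 13773 features was also 0. The adjusted p of the 61 lay between 0.72 and 0.98 (limma, Benjamini-Hochberg over all features tested), and this range holds for each difference of a representing probe over all 6 arrays given below. An unadjusted limma p under 0.05 was reached by 1 gene, Dnajb6, or 1.64%, beside 2.16% of all features. With the ordinary t statistic 1 of the 61 reached it, and with trend and robust variance 0. For 3 of the 61 genes the 3 values of each group did not overlap (4.92%, beside 3.41% of all features). Dnajb6 and Hspd1 were higher in Klf4-deficient arrays (3.28%, beside 2.33%) and Cct4 was lower (1.64%, beside 1.07%). The median difference, Klf4-deficient minus WT, was 0.056 (log2) over the 61 and -0.071 over all features, with 34 genes higher and 27 lower. These counts lie near the shares over all features.

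Without WT replicate 3, 56 chaperone genes had a value above 32, and again 0 were called by limma. An unadjusted p under 0.05 was then reached by 5 of them (8.93%, beside 3.75% of all features): Dnajb6, Hspd1, Pfdn5, Dnajc3 and Dnajc6. The groups did not overlap for 9 of the 56 (16.1%, beside 9.15%). Dnajb6 and Hspd1 were the 2 higher ones (3.57%, beside 3.8%), and 7 were lower in Klf4-deficient arrays (12.5%, beside 5.35%): Cct4, Dnaja2, Dnajc3, Dnajc6, Dnajc8, Hspa4l and Pfdn5. The median difference of the 56 was -0.043, with 26 higher and 30 lower. Arrays at the floor tie, so features above 32 on few arrays can seldom separate the groups. Chaperone genes were above 32 on more arrays than all features, so these shares are not a like comparison. Among features above 32 on at least 3 of all 6 arrays, the groups did not overlap for 3 of 38 chaperone genes and 469 of 5244 features.

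**Figure D2:**
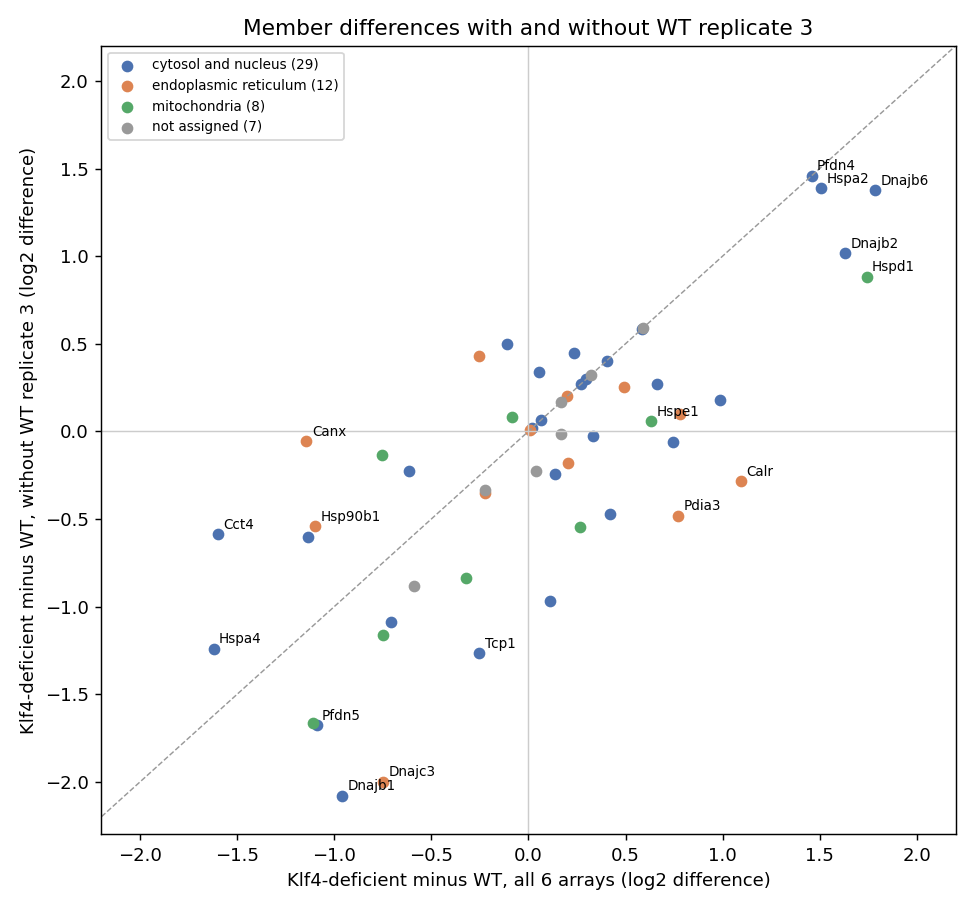
Difference between Klf4-deficient and WT arrays (log2) for the 56 chaperone genes measured in both fits, with all 6 arrays on the horizontal axis and without WT replicate 3 on the vertical axis, coloured by compartment. The dashed line marks equal values. Dnajb6, Hspd1, Pfdn4 and Cct4 keep their sign, while Calr and Pdia3 lie above 0 on the horizontal and below 0 on the vertical axis.

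The constitutive cytosolic HSP70, Hspa8 (HSC70), folds nascent proteins and uncoats clathrin vesicles. It read 2475.3, 1448.2 and 860.6 in WT against 1756.1, 1785.3 and 1301.1 on Klf4-deficient arrays for the brightest of its probes. The groups overlapped, and the difference was 0.13 ± 0.44 (log2, SE, n = 3 per group; 95% interval -0.97 to 1.24). A second Hspa8 probe read 777.4, 921.2 and 552.5 against 956.7, 873.6 and 860.6. The third read 820, 1021.6 and 478.2 against 175.3, 839.4 and 620.3. All 18 Hspa8 values were thus well over 32, and on each probe WT replicate 3 was the lowest WT array.

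The inducible cytosolic HSP70 genes did not share this signal. Hspa1a, which heat shock factor switches on strongly under stress, read -2.5, 8.3 and 16.8 in WT against 1.2, 1.5 and 15.5 in Klf4-deficient arrays on the brightest of its 3 probes. Hspa1b, its near-identical neighbour, lay between -16.3 and -3 on all 6 arrays on the brighter of its 2 probes. Signal from such similar transcripts cannot be assigned to 1 gene with certainty, and no fold was computed because both groups were below 32. Hspa2, a testis-enriched HSP70, was uneven, with 24.4, 145.6 and 53.5 in WT against 194.9, 13.8 and 915.2 in Klf4-deficient arrays (1.51 ± 1.35).

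The HSP110 relatives of HSP70 act as its nucleotide exchange factors. Hsph1 read 161.2, 21.6 and -6.9 in WT against 270.5, 75.5 and -23.8 in Klf4-deficient arrays, above 32 on 1 and 2 arrays, with a difference of 0.66 ± 1.04 (0.27 without WT replicate 3). Hspa4 read 224.9, 290.5 and 566.2 against 253.9, 156 and 32 (-1.62 ± 0.87), and its value without WT replicate 3 was -1.24. Hspa4l, its close relative, read 43.6, 114.2 and 29.9 against 35.8, 18.7 and 22 (-0.71 ± 0.51, and -1.09 without it). On these probes the lowest values of both genes were in Klf4-deficient arrays, and the groups overlapped at the floor or above it. A second Hspa4 probe read 194.9, 7.6 and -0.2 against 40.9, 11.4 and 45.7 (-0.58), lowest in WT. The further Hspa4l probes, at 0.026 and 0.049, were above 32 on 1 Klf4-deficient array each (33.8 and 35.4). Hspa14, which works at the ribosome, was below 32 on all WT arrays and read 59.9, 25.5 and 57.5 in Klf4-deficient arrays, at least 1.5-fold higher with 2 of 3 arrays above the floor.

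Hspa5 encodes BiP, the HSP70 of the ER lumen and a standard marker of the unfolded protein response. It read 529.3, 222.6 and 154.2 in WT against 806, 271.5 and 127.3 in Klf4-deficient arrays. Both groups spanned a wide range and overlapped, and the difference was 0.21 ± 0.83 (95% interval -1.89 to 2.30). It turned to -0.18 without WT replicate 3 and to -0.50 without Klf4-deficient replicate 1, its highest array.

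Hspa9 encodes mortalin, the HSP70 of the mitochondrial matrix that drives protein import. On its brightest probe it read 2998.6, 437 and 1632.6 in WT against 1378.6, 1031 and 1256 in Klf4-deficient arrays (-0.087 ± 0.74, and 0.084 without WT replicate 3). On its other probe it read 160.1, 483.2 and 212.4 in WT against 637.6, 564.5 and 543.1 in Klf4-deficient arrays, a difference of 1.19 ± 0.45 without overlap (limma adjusted p = 0.71 with each probe as its own feature). The Klf4-deficient arrays lay close together on both probes. The WT arrays differed widely, and in a different order on each probe.

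HSP90 was measured on the probes of Hsp90aa1 in the cytosol and Hsp90b1, which encodes GRP94, in the ER. Hsp90ab1, the constitutive cytosolic form, was not analysed here. Hsp90aa1 read 8015.4, 1189 and 6948.1 in WT against 3244.3, 2322.8 and 2436.4 in Klf4-deficient arrays. All Klf4-deficient values lay within the WT range, and the difference was -0.62 ± 0.80. It was -0.23 without WT replicate 3, -0.12 without WT replicate 1 and -1.50 without WT replicate 2. A second Hsp90aa1 probe read 414.6, 152 and 659.7 against 387.7, 355.4 and 420.2 (0.16), with the same WT array, replicate 2, the lowest. Hsp90b1 read 446.8, 213.9 and 986.3 against 207.6, 312.6 and 147.8 (-1.10 ± 0.64, and -0.54 without WT replicate 3).

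Small heat shock proteins hold unfolded proteins in a refoldable state without ATP. Only Hspb1, which encodes HSP27 or HSP25 in mouse, was above 32 among their 7 genes, on WT replicate 3 (148.3). On the other arrays it read 7.1 to 22.5, so its difference, at least 1.67-fold lower in Klf4-deficient arrays, rests on that array alone.

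**Figure D3:**
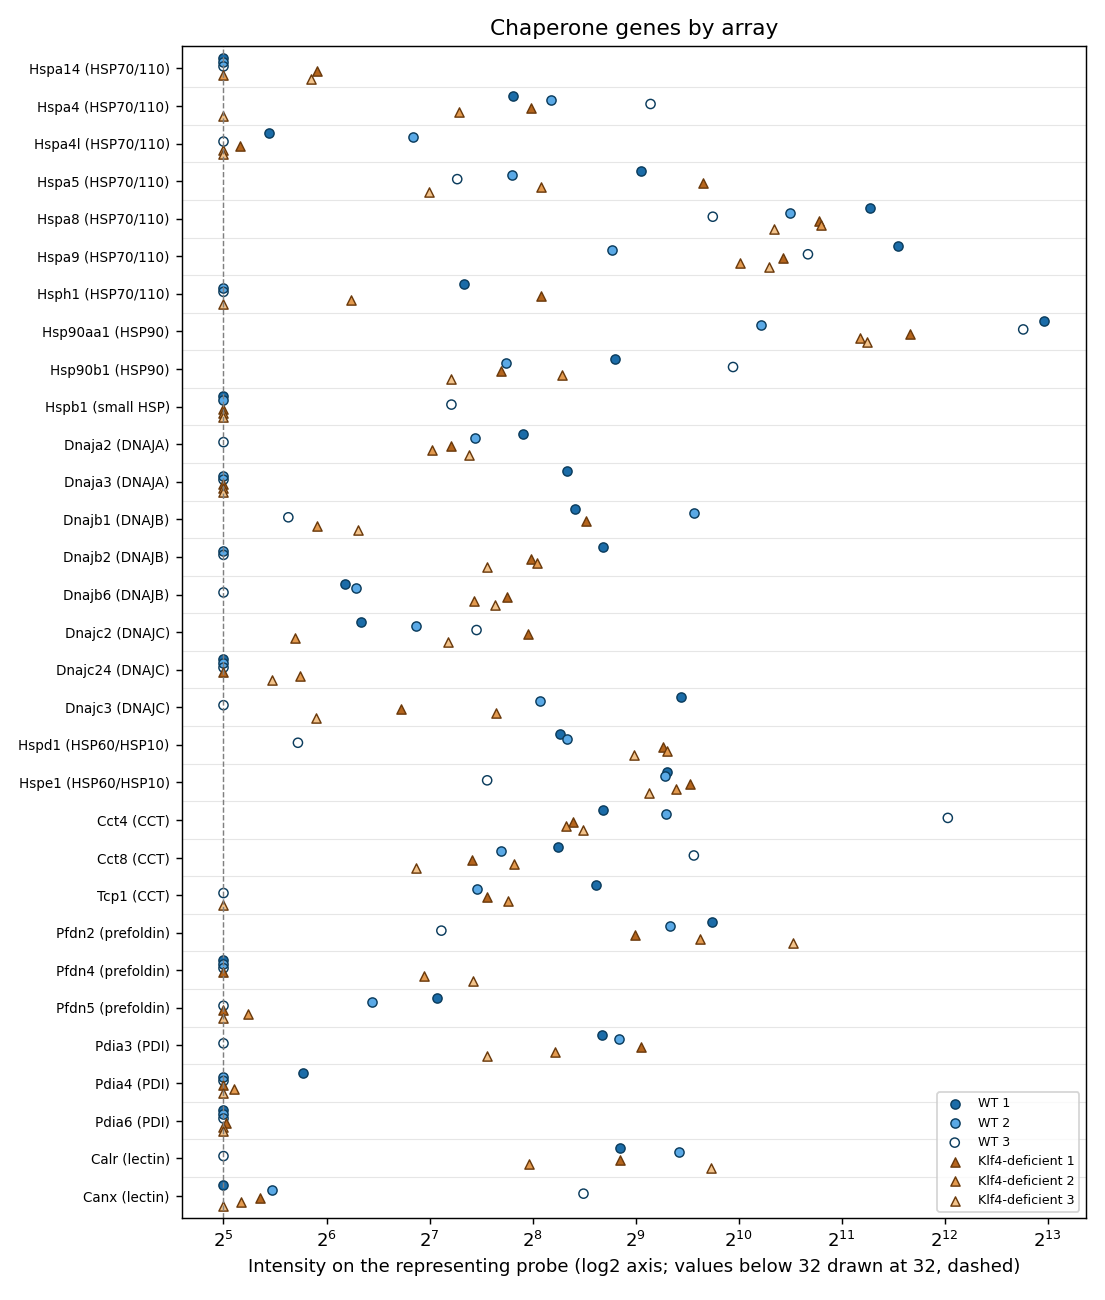
Intensity of named chaperone genes above 32 on at least 1 array (Hspbp1 and Hspbap1 are left out), on the probe that represents each gene, on a log2 axis with values below 32 drawn at the dashed floor. Circles are WT arrays (replicate 3 open) and triangles Klf4-deficient arrays. The triangles of Dnajb6 (173.1 to 215.5) and Hspd1 (507.9 to 630.8) lie to the right of all circles, and those of Cct4 (320.6 to 360.6) to the left.

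J proteins stimulate the ATPase of HSP70 and bring it its substrates. Of 40 J protein genes with a probe, 27 were tested, of which 16 read higher and 11 lower without Klf4. Their median difference was 0.063 (log2), or -0.017 without WT replicate 3, and 0 were called. Among the 12 genes of class B, 8 were tested, with 6 higher and 2 lower (median 0.28, and -0.025 without Klf4-deficient replicate 3). Among the 25 of class C, 17 were tested, with 9 higher and 8 lower (median 0.056, and -0.45 without Klf4-deficient replicate 1). Of the 3 in class A, Dnaja2 and Dnaja3 were tested.

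Dnajb6, a J protein that keeps polyglutamine proteins from aggregating, had the smallest p of the 61 genes. It read 72.4, 77.9 and 13.5 in WT against 215.5, 173.1 and 198.7 in Klf4-deficient arrays. Every Klf4-deficient array was above every WT array, by 3.45-fold in the mean of log2 values (1.79 ± 0.40, 95% interval 0.77 to 2.81, unadjusted p = 0.0060 and adjusted p = 0.72 in limma), so it did not pass the test. Without WT replicate 3 the difference was 1.38 ± 0.23 (adjusted p = 0.48). Another Dnajb6 probe read 27.2, 192 and -0.6 against 122.3, 83.2 and 97.4 (0.78), and in this case WT replicate 2 was the highest array. The remaining 2 probes were near the floor, with differences of -0.34 and -0.086. The 4 probes of this gene thus did not share a sign.

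Dnajb1 encodes HSP40, the heat-inducible partner of cytosolic HSP70. It read 341, 759.7 and 49.5 in WT against 367.4, 60 and 79 in Klf4-deficient arrays (-0.96 ± 1.25, and -2.08 without WT replicate 3). Each group held both high and low arrays. Dnajb2, a J protein that targets clients for degradation, read 412, 0.4 and -11 against 252.7, 263.4 and 188.6 (1.63 ± 1.09, and 1.02 without WT replicate 3). It was above 32 on 1 WT and 3 Klf4-deficient arrays, and that WT array was the highest of all. Dnajb9, an ER J protein induced by the unfolded protein response, was highest in Klf4-deficient replicate 3 on both probes (196.8 and 183.6).

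Dnaja2, a main cytosolic J protein, read 239.5, 174.2 and 10.4 in WT against 147.8, 129.7 and 167 in Klf4-deficient arrays (0.42 ± 0.81). Its sign turned to -0.47 without WT replicate 3. A further probe of this gene read 82.5, 119.2 and 265.7 against 28.6, 51.1 and 27.4, a difference of -1.88 ± 0.50 without overlap (limma adjusted p = 0.71 with each probe as its own feature), while the last read 452.4 in Klf4-deficient replicate 2 and at most 66.4 elsewhere (0.68). Dnaja3, a mitochondrial J protein, was above 32 in WT replicate 1 only (322.3). Its difference, at least 2.16-fold lower in Klf4-deficient arrays, rests on that array.

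In class C, Dnajc3 encodes p58IPK, an ER protein that assists BiP. It read 692.9, 269.4 and 1.5 in WT against 105.4, 200 and 59.8 in Klf4-deficient arrays (-0.75 ± 1.23). Without WT replicate 3 the difference was -2.0 ± 0.72 (unadjusted p = 0.045, adjusted p = 0.85 in limma), and it turned to 0.22 without WT replicate 1. Dnajc6, an auxilin that recruits HSC70 to clathrin coats, read 293, 312.6 and -6.3 against 204.3, 115.8 and 156.2 (0.11 ± 0.98, and -0.97 without WT replicate 3). A second Dnajc6 probe read 99.4, 369.9 and 379 against 54, 128 and 108.1 (-1.41 ± 0.67), with WT replicate 3 the highest array, and the third gave -0.030. Dnajc2, the ribosome-bound MPP11, read 80.8, 116.5 and 175.6 against 248.9, 51.6 and 144.5 (0.056 ± 0.67, and 0.34 without WT replicate 3). On this probe the Klf4-deficient arrays enclosed the WT range. A second Dnajc2 probe read 658.6, 28.3 and 26.8 against 428.3, 25.9 and 43.9 (-0.055), and the third gave -0.036. Dnajc24, of diphthamide synthesis, was below 32 on all WT arrays and at 53.5 and 44.3 on 2 Klf4-deficient arrays, at least 1.32-fold higher.

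The mitochondrial chaperonin HSP60 and its lid HSP10 are encoded by Hspd1 and Hspe1, neighbouring genes that share a promoter. Hspd1 read 308.1, 323.5 and 52.8 in WT against 614.2, 630.8 and 507.9 in Klf4-deficient arrays. All Klf4-deficient arrays were above all WT arrays, by 3.34-fold (1.74 ± 0.77), and the difference was 0.88 ± 0.23 without WT replicate 3 (unadjusted p = 0.016, adjusted p = 0.85 in limma). Its second probe read 312.3, 72.7 and 8.1 against 161.9, 63.4 and 97.6 (0.15), with overlap. Hspe1 read 630.8, 622.3 and 188.6 against 736.5, 672.1 and 558.7 (0.63 ± 0.54), and 0.056 without WT replicate 3. In both genes that array was the lowest of the 6.

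The CCT ring is built from different but related subunits, and 10 genes were taken under their symbols, among them Cct6b of testis and Cct8l1. Of these, 9 were tested, with 4 higher and 5 lower (median -0.11, and -0.045 without WT replicate 3). Cct4 read 411.6, 629.4 and 4183.7 in WT against 336.6, 320.6 and 360.6 in Klf4-deficient arrays. The 3 Klf4-deficient values lay close together below all WT values, 3.03-fold lower in the mean of log2 values (-1.60 ± 0.91), but the size rests on WT replicate 3, without which it was -0.59 ± 0.28. Cct8 read 303.5, 206.5 and 757.7 against 169.9, 225.4 and 116.7 (-1.14 ± 0.57, and -0.60 without that array).

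The subunits of this complex differed in which array was highest or lowest. Cct5 read 930, 312.1 and 1926.4 in WT against 589.9, 804.5 and 931.3 in Klf4-deficient arrays (-0.11 ± 0.71), highest in WT replicate 3 like Cct4 and Cct8, and the difference turned to 0.50 without that array. Cct3 was instead at -5.1 in that array, with 190.6 and 153.4 in the other WT arrays and 393.9, 120.2 and 93.1 in Klf4-deficient arrays. Its second probe read 53, 46.9 and 52.5 against 87.3, 34.4 and 58.2, so that WT replicate 3 was not low on it. Tcp1, the subunit alpha, read 393.5, 176.2 and -18.3 against 188.7, 217 and -7.8 (-0.25 ± 1.22, and -1.27 without WT replicate 3), below 32 on 1 array of each group. Its other probe read 27.6, 134.2 and 2.3 against 55, 210.3 and 46.6, a difference of the opposite sign (0.66). Cct6a read 674.6, 276.5 and 673.6 against 572.1, 875.1 and 409.8 (0.24 ± 0.49, and 0.45 without WT replicate 3).

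Prefoldin delivers unfolded actin and tubulin to CCT. Pfdn2 read 857.8, 644.7 and 138.6 in WT against 511, 789.1 and 1472.8 in Klf4-deficient arrays (0.98 ± 0.83, and 0.18 without WT replicate 3). Pfdn4 was between -11.5 and -9.7 in WT and read 20.3, 123.7 and 172 in Klf4-deficient arrays. This was at least 2.75-fold higher, with 2 of 3 arrays above the floor. The remaining Pfdn4 probes stayed at -8.7 to 8.1 and at -11.6 to 0.3 over all 6 arrays. The rise was thus seen for 1 of 3 probes. Pfdn5, also known as MM-1 for its binding to MYC, read 134.3, 87 and -2.9 against 6.4, 37.7 and 30.9 (-1.09 ± 0.56). Its other probe read 69.7, 120.6 and 25.8 against 22.4, 23.8 and 10.2 (-1.01). WT replicates 1 and 2 were above all Klf4-deficient arrays on both probes, and WT replicate 3 was at the floor on both. Without that array the difference on the representing probe was -1.68 ± 0.29 (unadjusted p = 0.0036, adjusted p = 0.54 in limma).

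Calreticulin and calnexin hold newly made glycoproteins in the ER. Calr read 460.8, 684.1 and 17.2 in WT against 461.4, 249.7 and 849.2 in Klf4-deficient arrays. Apart from WT replicate 3 the groups spanned similar values, and the difference of 1.09 ± 1.30 turned to -0.29 without that array. Canx showed the opposite in that array, with 29.2, 44.3 and 360.6 against 41, 36.1 and 8.5 (-1.14 ± 0.97, and -0.057 without it).

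Protein disulfide isomerases form and rearrange disulfide bonds. Of their 5 genes here 4 were tested, with 3 higher and 1 lower. Pdia3, which works with calnexin and calreticulin, read 408.4, 456.6 and 18.6 in WT against 529.8, 296.9 and 187.9 in Klf4-deficient arrays (0.77 ± 1.16, and -0.48 without WT replicate 3). Pdia4 was above 32 on 1 array of each group, at 54.5 and 34.3. Pdia6 and Pdia5 exceeded 32 on Klf4-deficient replicate 1 only, at 32.6 and 48.4. Outside Pdia3 the genes with a Pdia symbol were thus near the floor. P4hb, a protein disulfide isomerase not taken by symbol, is in the co-chaperone list below. It read 74.6, 543.8 and 4.4 in WT against 360.6, 525.8 and 110.2 in Klf4-deficient arrays.

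Taken by compartment, 32 genes of cytosol and nucleus were tested, with 19 higher and 13 lower (median difference 0.087 log2). The ER had 12, with 7 higher and 5 lower (median 0.10), and mitochondria 8, with 3 higher and 5 lower (median -0.20). No gene was called in any of them. The ER median was -0.12 without WT replicate 3, and lay between -0.12 and 0.21 when each array was left out in turn. The mitochondrial median was -0.42 without WT replicate 2, and 0.72 when WT replicate 1 was left out. In the mitochondrial group Hspd1 was at 1.74, while Dnaja3, Dnajc15, Dnajc11 and Dnajc30 were at -1.11 to -0.32. A further 9 tested genes had no compartment assigned. Of the genes taken by symbol only, which are not chaperones of these families, Hspbp1 and Hspbap1 were above 32 on 1 array each and Hspb11 on none.

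Of 49 genes with several probes, 23 had more than 1 probe above 32 on some array. Their 36 further probes had the sign of the representing probe in 19 cases and the opposite sign in 17. With each probe as its own feature, the groups did not overlap for 5 of 97 chaperone probes (5.15%, beside 3.09% of all probes tested). These were the probes of Cct4, Dnajb6 and Hspd1 described above and the second probes of Hspa9 and Dnaja2. No gene had 2 probes in this set.

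**Figure D4:**
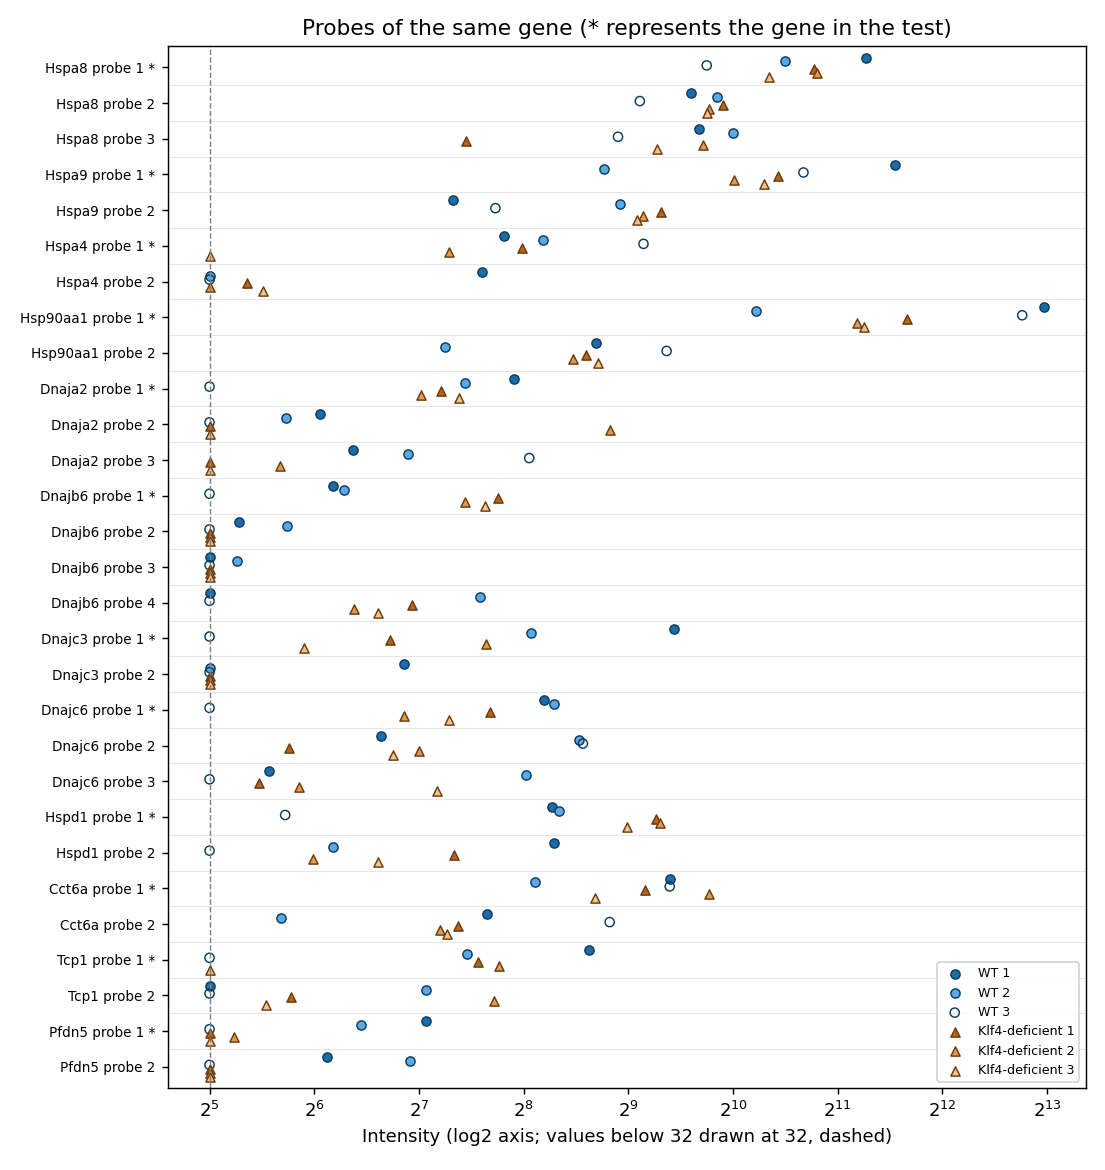
Intensity of the probes above 32 on at least 1 array for 12 genes with several probes, on a log2 axis with values below 32 drawn at the dashed floor. The asterisk marks the probe that represents the gene, circles are WT arrays (replicate 3 open) and triangles Klf4-deficient arrays. Pfdn5 has the same order of groups on both probes, while Dnaja2, Dnajb6, Hspa9 and Tcp1 do not.

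The co-chaperones and stress regulators around these families were counted as a list of 45 genes, of which 44 had a probe and 35 were tested. Of these, 19 read higher and 16 lower without Klf4 (median 0.12 log2), and 0 were called by limma. None had an unadjusted p under 0.05. The HSP90 co-chaperone Chordc1 was the 1 gene of the list without overlap, with 285, 350.7 and -12 in WT against 521.2, 632.9 and 1182.9 in Klf4-deficient arrays (2.31 ± 1.02). Xbp1, a transcription factor of the unfolded protein response, read 28.7, 85 and -8.3 against 86.1, 114.8 and 82.3 (1.07 ± 0.46). Ddit3, which encodes CHOP of the same response, read 1052.2, 163.9 and 75.7 against 882.5, 935.9 and 592.6 (1.74 ± 1.01). Chordc1, Xbp1 and Ddit3 all read lowest in WT replicate 3, and differences without that array are not given for this list. Other ER stress genes went both ways, with Sdf2l1 at 0.74, Hyou1 at 0.25, Creld2 at 0.19, Manf at -0.041, Atf4 at -0.060 and Edem1 at -0.62. The ER stress gene Herpud1 read 2501.7 in WT replicate 3 and 1.2 to 251.5 elsewhere (-2.33 ± 1.63).

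Markers that moved with the groups or with WT replicate 3 were summed over all genes of a list with a probe, with negative values at 0. For immediate early and handling stress genes, 5 of 10 were above 32 on some array, and the sum was 410.8 to 456.3 in WT against 851 to 1112.3 in Klf4-deficient arrays. Egr1 was the main contributor in every array, and Jun, Fosb, Atf3, Ier2 and Nr4a1 never exceeded 32. The tested genes of this list went both ways. Differences were above 0 for Egr1, Dusp1 (1.12) and Zfp36 (0.34), and below 0 for Fos (-0.62) and Junb (-0.55). Fos was highest on WT replicate 2 (116.2) and Junb on WT replicate 3 (112.5). Of 5 erythroid genes with a probe 4 were tested, all higher in Klf4-deficient arrays, with sums of 866 to 2914.8 in WT against 2299.2 to 3257.1. WT replicate 3 had the highest sum of the 6 arrays for several other lists. For 10 neutrophil lineage genes, 9 of them tested, it was at 7760, where the other arrays had 2221.8 to 4318.1. Mpo gave 7153.2 of this sum. Mpo and Ltf (291.9) had their highest values there, and Ctsg (8.8) and S100a9 (2.9) their lowest. For 5 monocyte and macrophage genes WT replicate 3 was at 624.6 against 78 to 188.8. For 6 stroma and endothelium genes, 4 of them tested, it was at 542 against 41.8 to 87.7. For 5 mast cell and basophil genes, 4 of them tested, it was at 9450.4 against 4319.8 to 8751.3. Hdc gave 8245.9 of this sum and was highest there, while Cpa3 (551.5) and Gata2 (-1.9) were lowest there. For 6 B and plasma cell genes, 4 of them tested, WT replicate 3 was at 202.8 against 43.3 to 193.4. For 7 genes of the stem cell gate WT replicate 3 had the lowest sum, 415.5 against 620.2 to 1446.2, as for erythroid genes. Kit gave 381.5 of this sum. Kit and Hlf (34) were highest on that array, while Flt3 (-12.3) and Gata2 (-1.9) were lowest there. For 5 T and NK cell genes the sums were 39.2, 42.5 and 287.1 in WT against 245.2, 295.3 and 167.3. Of the WT arrays only replicate 3 thus reached the Klf4-deficient range, but through other genes. On it Cd3d gave 225.4 and Cd3e 56.3, with Thy1 at -7. Thy1 gave 113, 187.2 and 146 on the Klf4-deficient arrays, where Cd3d was at most 7. The list was split, with positive differences for Thy1, Nkg7 (0.62) and Cd3g (0.23) and negative ones for Cd3d (-0.94) and Cd3e (-0.27). Single markers without overlap between the groups were Thy1 (2.19) and Alas2 (2.2), higher in Klf4-deficient arrays, Egr1 (1.58), also higher, and the neutrophil lineage gene Ms4a3 (-2.39), lower, and 0 of them were called by limma. The B cell markers Cd79b and Ms4a1 and the stroma and endothelium markers Cdh5 and Col1a1 never exceeded 32. The part of these markers in the chaperone differences was not tested, and in sorted bulk RNA fewer cells of a type and less RNA per cell cannot be told apart. Klf4 itself exceeded 32 once on 3 probes and 6 arrays, at 51.9 in WT replicate 2, and so gave no check of the labels. Of the genes of the sort gate, Kit was above 32 on 1 WT and 2 Klf4-deficient arrays, and Ly6a was not analysed here.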

How the data were processed

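RNA was measured on 6 one-colour Illumina bead arrays, 3 per group. The deposited values are intensities, 1 per probe and array. A contractor prepared targets and scanned the arrays, per the labels' protocols. The submitters' processing notes name BeadStudio, with its version and its background and scaling steps not given in the sources used here. Values below 0 show background subtraction, and column quartiles that nearly coincide (medians 1.6 to 1.7) show a common scale.

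The values were not rescaled. Those below 32 were raised to 32, and log2 was taken. Symbols came from the platform annotation, where a RefSeq gene list (GRCm38.p6) changed none. Of the probes, 34885 carried a single symbol, 18 several and 10378 none listed. The brightest probe represented a gene, and the 13773 of 29453 features above 32 on at least 1 array were tested with limma 3.58.1 (lmFit, eBayes) in R 4.3.3, with data.table (1.17.8), two-sided, Benjamini-Hochberg adjusted, threshold 0.05. A fold against a group with all arrays at the floor is a bound, written as "at least". The code was tested on simulated data. Figures used matplotlib 3.10.9.

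The members, lists and naming rule were chosen with earlier results of these data known. The rule named called genes, for each family up to 2 genes above 32 on the most arrays, the 6 per direction with the smallest p (genes without overlap first), and a list of well-known chaperones, 35 genes in all, 33 of them tested. Others named are described as members or were chosen after their values were seen. Families and compartments were assigned from general knowledge. The number of arrays limits precision. Probe sequences and coordinates were not used here.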

Additional observations from a re-analysis of the deposited data

How the results depend on the processing

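No chaperone gene was called by limma under any of the 17 alternatives, with 0 in each, the fit with the replicate block among them, where the median difference was also 0.056. Of 541 values of named genes under these alternatives, 518 kept their direction, and the lowest adjusted p in limma was 0.27. Many of these directions were fixed in advance. No filter, a stricter filter and each probe as its own feature leave the difference of a representing probe unchanged. So do the ordinary t statistic, trend and robust variance, and the replicate block. The number of chaperone genes without overlap, 3 of 61, was 5 of 70 with a floor of 16 and 5 of 61 with an offset of 16. With each probe as its own feature it was 5 of 97. Over all features these counts were 469 of 13773, 718 of 17542, 1100 of 13773 and 564 of 18270. When 1 array was left out, the chaperone count was 4 to 9, the highest without WT replicate 3 (9 of 56). Over all features it was then 891 (of 13087, without Klf4-deficient replicate 2) to 1455 (of 12963, without WT replicate 2). With fewer arrays the groups also separate more easily. The median difference of 0.056 ranged from -0.16 (Klf4-deficient replicate 1 left out) to 0.24 (WT replicate 1 left out), and was -0.10 with a floor of 64, each within the spread between arrays. When probes of a gene were averaged, the sign turned for Dnaja2 (-0.26), Dnajc2 (-0.012), Hspa8 (-0.097), Hspa9 (0.55) and Tcp1 (0.20), and Pdia4 turned to 0.0022 with an offset of 16. Leaving out 1 array gave ranges across 0 for Calr (-0.29 to 1.92), Dnaja2 (-0.47 to 0.98), Dnajc2 (-0.45 to 0.68), Dnajc3 (-2.0 to 0.22), Hspa5 (-0.50 to 0.83), Hspa8 (-0.24 to 0.52), Hspa9 (-0.87 to 0.52), Hsph1 (-0.16 to 1.44), Pdia3 (-0.48 to 1.44), Pdia4 (-0.35 to 0.033) and Tcp1 (-1.27 to 0.63). For Calr, Dnaja2, Dnajc3, Hspa8, Pdia3 and Tcp1 the negative end was without WT replicate 3, and for Pdia4 it was the same without WT replicate 2 or 3. With the other floors and with quantile normalization, every named gene that was tested kept its direction. The arrays already shared a minimum (-31), a maximum (37007.2) and nearly the same quartiles, so quantile normalization could change little. Deviations of same-numbered arrays of the 2 groups correlated at 0.037 to 0.048, and those of differently numbered arrays at -0.037 to -0.0091. Any sharing by number was thus weak. The cause of these shifts was not tested. With 3 arrays per group and most values near the floor, low signal limits what can be detected.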

Other observations

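The 17 chaperone genes above 32 on a single array, on the representing probe, were Cct2, Cct6b, Dnaja3, Dnajb3, Dnajb4, Dnajb8, Dnajc27, Dnajc28, Dnajc4, Dnajc7, Dnajc9, Hspb1, Hspbap1, Hspbp1, Pdia5, Pdia6 and Pfdn1. For Cct6b, Dnajb8, Dnajc28, Hspb1 and Pfdn1 that array was WT replicate 3. A second probe of Dnajc28 exceeded 32 on WT replicate 2 (46.3).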
